A study of Mus musculus with 2 samples.

Results

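The proteasome genes of mouse 3T3 fibroblasts were taken as every probe set annotated to exactly 1 gene whose symbol begins with Psma, Psmb, Psmc, Psmd, Psme, Psmf or Psmg followed by a digit. The pattern found 58 of the 12488 probe sets, which stand for 46 of the 8251 genes named by a probe set. Of these genes 17 belong to the 20S core (Psma and Psmb), 21 to the 19S base and lid (Psmc and Psmd) and 4 to the activators (Psme), and the other 4 are Psmg assembly chaperones. No Psmf symbol was found. The symbols of Psmc3ip, a meiotic recombination factor, and Psme3ip1, a binding partner of the Psme3 activator, match the pattern although neither is a subunit. They are counted with the 19S and activator genes, and the main counts are also given without them. Another 2 probe sets, each annotated to both Psme2 and Psme2b, fall outside the rule and are not in the counts. Psme2 is therefore not among the members.

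The cells were an immortalised line of mouse embryo fibroblasts in serum-free DMEM, either kept in suspension or plated for 30 min on 10 µg/ml fibronectin, a matrix protein that cells grip through integrins. Total RNA from each condition was hybridised to 1 Affymetrix MG_U74Av2 array. The series' design text speaks of 2 replicates, but 1 array stands for each group here, and what the replicates were is not stated in the sources used. With 1 array per group there is no replicate check, no test and no p-value for any difference, and the words higher and lower compare only these 2 arrays. The 2 arrays came from different chip lots and were scanned on different days, per the file headers, which cannot be told apart from the culture condition. Of 15 fibroblast markers, 14 reached the signal floor, and the list summed to 195418 in suspension against 277452 on fibronectin. Of the markers of other cell types, 4 of 9 macrophage and blood, 5 of 7 epithelial, 2 of 6 endothelial, 1 of 3 adipocyte and 4 of 6 neural ones reached the floor, and each list summed to between 1284 and 9550 in suspension and between 581 and 8372 on fibronectin. The part of these markers in the results was not tested, and in RNA from whole cultures fewer cells and less RNA per cell cannot be told apart.

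The proteasome is the main protease of the cytosol and nucleus. Proteins tagged with ubiquitin are bound and unfolded by the 19S cap, whose base holds a ring of ATPases and whose lid removes the ubiquitin, and are then cut inside the 20S barrel, which is built of alpha rings and catalytic beta rings. Interferon induces beta subunits that replace the catalytic ones, which favours peptides for class I antigen presentation. Because subunits are built into 1 particle, their transcripts are known to be adjusted together, among others by the transcription factor Nrf1 (gene Nfe2l1) when proteasome activity is short.

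Of 42 measured proteasome genes, 33 had signals within 1.5-fold of each other on the 2 arrays, while on fibronectin 4 were higher and 4 lower by 1.5-fold or more. For Psmb8 the ratio is only a bound, which cannot be placed on either side of 1.5-fold. A gene counted as measured when its signal reached a floor of 490 in at least 1 array, which 42 of the 46 members did, 41 of them in both arrays. The log2 ratio was taken as fibronectin minus suspension, after both signals had been raised to the floor where they lay below it. The median ratio of the 42 members was -0.04, with the middle 50% between -0.36 and 0.17, while the median of all 6385 measured genes was -0.09, with the middle 50% between -0.53 and 0.36. Above a ratio of 0 were 20 members and below it 22, against 44.9% of all measured genes above 0.

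At least 1.5-fold higher on fibronectin were 4 of the 42 members, against 15.9% of all measured genes, and at least 1.5-fold lower were another 4, against 22.6%. In either direction 8 of the 42 members passed 1.5-fold, against 38.4% of all measured genes. Psmb8, with 1 signal under the floor, is not among them: its bound falls just short of the threshold. Past 2-fold, 1 member was higher, against 5.79% of measured genes, and 3 were lower, or 2 without Psme3ip1, against 9.27%. The median size of the ratio, without its sign, was 0.24 for the members and 0.46 for all measured genes. Many members have a high signal, so the same shares were also taken over the 2129 genes in the highest tertile of mean signal, which holds 29 of the members. In that tertile 16.9% of genes were higher and 10.5% lower by 1.5-fold or more, 27.4% together, while 4.13% were higher and 2.16% lower by 2-fold or more. Of the 29 members there, 2 were higher by 1.5-fold or more, both by less than 2-fold. The only lower one past 1.5-fold was Psme3ip1, which is no subunit and was past 2-fold as well, so that 0 of the other 28 were lower by 1.5-fold or more. Above 0 were 15 of the 29, against 53.4% of the tertile's genes. The median size of the ratio was 0.21 for these 29 members and 0.36 for all genes of the tertile. Below that tertile, members were closer to the other genes. Of the 13 measured there, 2 were higher and 3 lower by 1.5-fold or more, against 15.4% and 28.6% of genes. Together these were 38.5% of the 13, against 43.9% of genes, with median sizes of 0.45 and 0.51. No test of these differences is possible with 1 array a group.

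**Figure D1:**
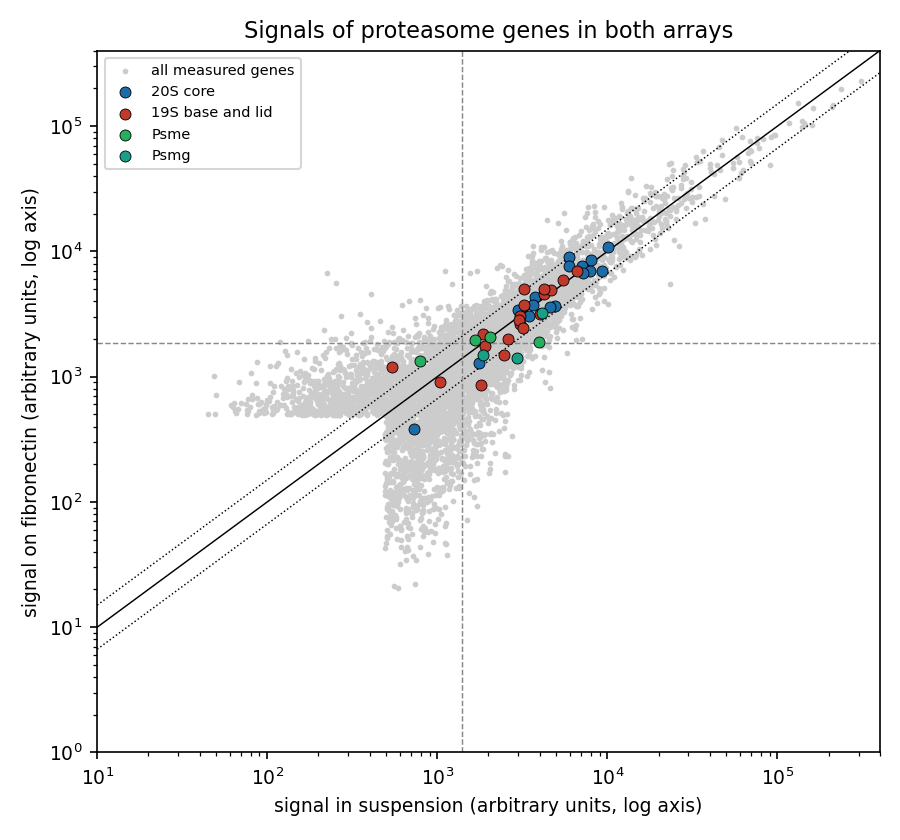
Signal of each measured gene in suspension (horizontal, log axis, arbitrary units) and on fibronectin (vertical, log axis, arbitrary units), with proteasome genes in colour by complex, all other measured genes in grey, equality as a solid line, 1.5-fold as dotted lines and the 95th percentile of negative controls on each array as dashed lines. Of the 42 coloured points 33 lie within 1.5-fold, and 32 lie above the dashed lines in both arrays, a level called the control level here.

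The size of these ratios can be set beside the disagreement between probe sets of 1 gene on the same arrays. Over 197 genes with at least 2 probe sets above the negative controls' 95th percentile in both arrays, the SD of the log2 ratio of 1 probe set was 0.40, and over 1146 genes with at least 2 probe sets above the floor in at least 1 array it was 0.69. This SD holds probe effects and array noise and no variation between cultures. A ratio of 1.5-fold, 0.58 on the log2 scale, is thus smaller than the wider of these SDs. Of the genes with both signals above the floor, Psma1 and Psma5 lay just inside 1.5-fold, with log2 ratios of -0.45 and -0.44, and just outside it Psma4 and Psmc2, with 0.60 and 0.63.

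The 7 alpha subunits, which form the outer rings of the barrel and its gate, were all measured in both arrays. Psma4 read 5935 in suspension against 9006 on fibronectin and was 1.52-fold higher, the only 20S gene past 1.5-fold among those with both signals above the floor. Both signals lay above the control level, the 95th percentile of 34 negative control probe sets, which was 1403 in suspension and 1873 on fibronectin. Its log2 ratio was 0.45 after quantile normalization, 0.46 after loess and 0.13 with scaling to the hybridisation spikes, all within 1.5-fold. Psma2 had signals of 8032 and 8604, Psma3 10114 and 10897, and Psma6 7053 and 7603, in suspension and on fibronectin. These 3 ratios lay between 0.10 and 0.11 on the log2 scale. Psma1 went from 1769 to 1291, Psma5 from 4944 to 3648 and Psma7 from 3446 to 3043, with log2 ratios of -0.45, -0.44 and -0.18. The alpha ring therefore held 4 ratios above 0 and 3 below, with a median of 0.10.

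The 7 constitutive beta subunits form the inner rings, and 3 of them carry the active sites. Psmb5, the chymotrypsin-like site, had signals of 2996 in suspension and 3414 on fibronectin, a log2 ratio of 0.19, and a second probe set had 1186 and 1156. Psmb6, the caspase-like site, had 3743 and 4363, with a log2 ratio of 0.22. Psmb7, the trypsin-like site, had 3660 and 3743, with a log2 ratio of 0.03. The catalytic subunits thus stood within 1.17-fold of equal signals on both arrays under the scaling used. With median scaling the log2 ratios of Psmb5, Psmb6 and Psmb7 were 0.40, 0.43 and 0.24. With scaling to the hybridisation spikes they were -0.29, -0.25 and -0.44. Of the subunits without an active site, Psmb1 was read by 3 probe sets. In 2 of them the signals went from 5975 to 7584 and from 4769 to 6644, with log2 ratios of 0.34 and 0.48 of the same sign, and the other, with 203 and 198, lay below the floor. Psmb2 had signals of 7957 and 6957 and Psmb3 of 9362 and 6956, with log2 ratios of -0.19 and -0.43. Psmb4 had 7150 and 6704 in the probe set used, a log2 ratio of -0.09. Its other probe sets were dim: one had 428 and 817, at least 1.67-fold higher on fibronectin, and the other 381 and 205, below the floor on both arrays. The median of the 7 genes was 0.03 and none passed 1.5-fold.

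Of the interferon-inducible beta subunits, Psmb10 was above the control level on both arrays and had a ratio below 0. Psmb10, the counterpart of Psmb7, read 4576 in suspension against 3568 on fibronectin, a log2 ratio of -0.36. Psmb8, the counterpart of Psmb5, had 734 in suspension and 380 on fibronectin. Its fibronectin signal was below the floor, so its log2 ratio of -0.58 is a bound, and both signals were under the control level. With a 20th-percentile floor or none the ratio was -0.95, past 1.5-fold. Psmb9, the counterpart of Psmb6, had 269 and 147 and was below the floor on both arrays. No direction is read for Psmb8 or Psmb9 at these signals.

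**Figure D2:**
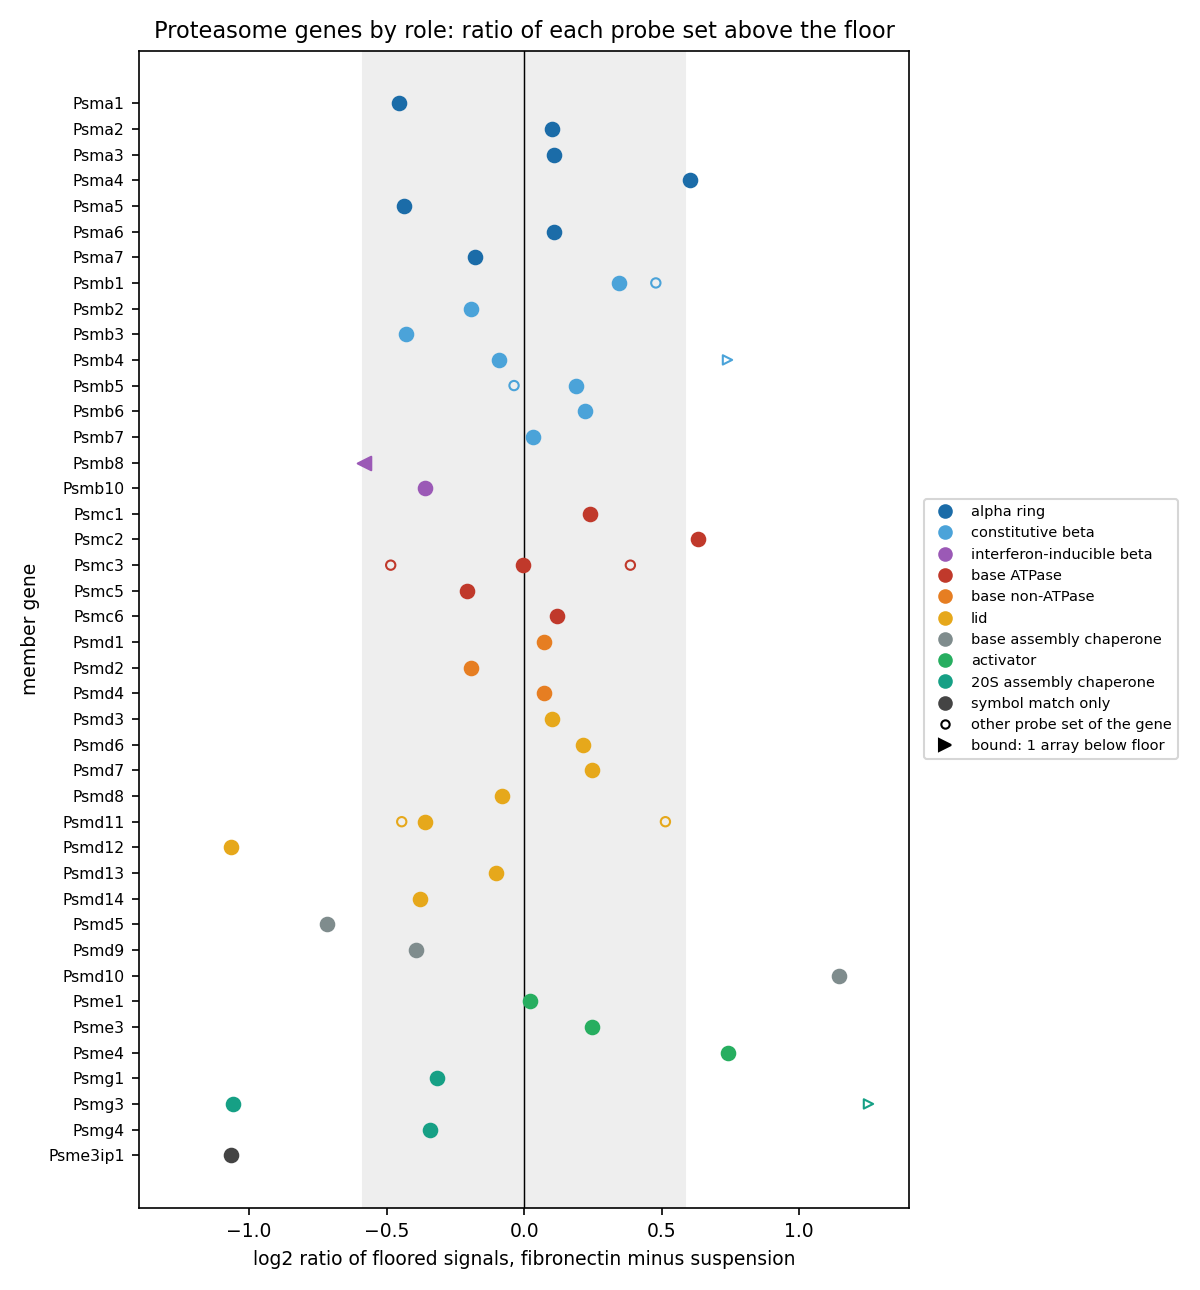
Log2 ratio, fibronectin minus suspension (horizontal), of every proteasome probe set that reached the floor in at least 1 array, 1 row per gene, coloured by role, with filled symbols for the probe set used, open symbols for other probe sets of the gene, triangles for bounds and a grey band for ratios within 1.5-fold. Most filled points lie in the band, the Psmb8 bound lies at its left edge, and those outside it are Psma4, Psmc2, Psmd10 and Psme4 on the right and Psmd5, Psmd12, Psmg3 and Psme3ip1 on the left.

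In the base of the 19S cap, the ATPases unfold the substrate and open the barrel. Psmc2 read 3225 in suspension against 4995 on fibronectin and was 1.55-fold higher, with both signals above the control level. Its log2 ratio was 0.57 after quantile normalization and after loess, just within 1.5-fold, and 0.16 with scaling to the hybridisation spikes. Psmc1 had 1865 and 2201 and Psmc6 4230 and 4589, with log2 ratios of 0.24 and 0.12. Psmc5 had 3065 and 2650, a log2 ratio of -0.21, and its other probe set was below the floor with 190 and 49. Psmc3 was read by 3 probe sets with log2 ratios of -0.01, 0.39 and -0.49, at signals of 3064 and 3053, 2098 and 2741, and 1396 and 997. They gave no common direction. Psmc4, which every 26S particle contains, had signals of 179 and 395 and was not measured, as both arrays were below the floor. Psmc3ip, which is no subunit, was below the floor too, with 241 and 86. Of the 5 measured ATPases, 3 had ratios above 0 and 2 below, with a median of 0.12. The other base subunits are the scaffold proteins Psmd1 and Psmd2 and the ubiquitin receptor Psmd4. Psmd1 had 4672 and 4906 and Psmd4 6597 and 6926, each with a log2 ratio of 0.07, and Psmd2 had 1043 and 911, a log2 ratio of -0.19.

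The lid holds the deubiquitinase Psmd14 and its partner Psmd7 among scaffold subunits. Psmd12, a scaffold subunit, read 1811 in suspension against 864 on fibronectin and was 2.10-fold lower. Its only probe set has an _f suffix, a type that can detect related sequences. Its fibronectin signal was under the control level, and with the floor raised to the mean control level of the arrays its log2 ratio was -0.14. Psmd14 had 2601 and 2001, a log2 ratio of -0.38, while Psmd7 had 4226 and 5016, a log2 ratio of 0.25. Psmd11 was read by 3 probe sets with log2 ratios of -0.36, 0.51 and -0.45, at signals of 4026 and 3138, 1503 and 2146, and 1512 and 1110, so its direction was not settled. Psmd3 had signals of 5479 and 5876, Psmd6 of 3245 and 3762, Psmd8 of 3006 and 2843 and Psmd13 of 1896 and 1767. The last 4 ratios ran from -0.10 to 0.21 on the log2 scale. Of the 8 lid genes 3 had ratios above 0 and 5 below, with a median of -0.09. Across all 19 measured 19S genes the median was -0.01, with 9 above 0 and 10 below, 2 higher and 2 lower by 1.5-fold or more.

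Of the factors that help to build the particle, Psmd10 (gankyrin), Psmd5 and Psmd9 are chaperones of the base, and 1 was at least 2-fold higher while another was at least 1.5-fold lower. Psmd10 read 540 in suspension against 1194 on fibronectin and was 2.21-fold higher, the largest ratio upward among the probe sets used for the members. Both signals were under the control level, and a floor at the 60th percentile brought its log2 ratio to 0.18. Psmd5 had 2455 and 1492 and was 1.65-fold lower, and its log2 ratio was -0.51 under median scaling and -0.58 with the floor at the control level, both within 1.5-fold. Psmd9 had 3191 and 2430, a log2 ratio of -0.39. Psmg1 to Psmg4 are chaperones that assemble the alpha ring. Psmg1 had 1855 and 1488 and Psmg4 4126 and 3253, with log2 ratios of -0.32 and -0.34. Psmg3 was 2.08-fold lower in the probe set used, with 2939 and 1410, but at least 2.38-fold higher in the other, with 409 and 1166. These 2 probe sets oppose each other, so the direction of Psmg3 was not settled. Psmg2 was below the floor with 165 and 132.

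Activators cap the barrel in place of the 19S complex. Psme4 (PA200) read 795 in suspension against 1328 on fibronectin and was 1.67-fold higher, with both signals under the control level. A floor at the 60th percentile brought its log2 ratio to 0.34, and scaling to the spikes to 0.27. Psme3 (PA28 gamma), a nuclear activator, had 1656 and 1963, a log2 ratio of 0.25. Psme1 (PA28 alpha), which interferon induces, had 2033 and 2061, a log2 ratio of 0.02, and a second probe set was below the floor with 116 and 311. The 2 probe sets shared by Psme2 and Psme2b lie outside the rule. The brighter read 4646 in suspension and 2793 on fibronectin, both above the control level and lower on fibronectin. The other was below the floor with 242 and 316. Psme3ip1, the partner of Psme3 that is itself no activator, had 3949 and 1886 and was 2.09-fold lower. Of the 4 members at least 1.5-fold lower, it was the only one with both signals above the control level. Its fibronectin signal only just passed that level of 1873, and the highest negative control on that array read 2527. The median of the 4 Psme symbols was 0.13, and 0.25 without Psme3ip1. Without the pair of symbols that are no subunits, 41 measured members remained, with a median of -0.01, 4 higher and 3 lower by 1.5-fold or more.

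Several probe sets read the same gene in 8 members, and in 6 of these at least 2 probe sets reached the floor. In 5 of the 6, Psmb4, Psmb5, Psmc3, Psmd11 and Psmg3, the ratios took both signs, and only Psmb1 kept 1 sign. The gap between the highest and lowest ratio of a gene ran from 0.13 for Psmb1 to 2.31 for Psmg3 on the log2 scale. In Psmb5 both ratios, 0.19 and -0.04, were near 0.

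The direction of the whole set followed the scaling. With median scaling the median of all measured genes was 0.11 and that of the proteasome genes 0.16. With the arrays scaled to 9 hybridisation spikes the medians were -0.51 and -0.52, and 18 members were lower and 1 higher by 1.5-fold or more. Counted relative to the median of all genes, 4 were higher and 4 lower under that scaling, and 4 and 4 under the scaling used here. Over all 13 alternatives, the proteasome median lay between -0.04 and 0.11 from the median of all measured genes.

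**Figure D3:**
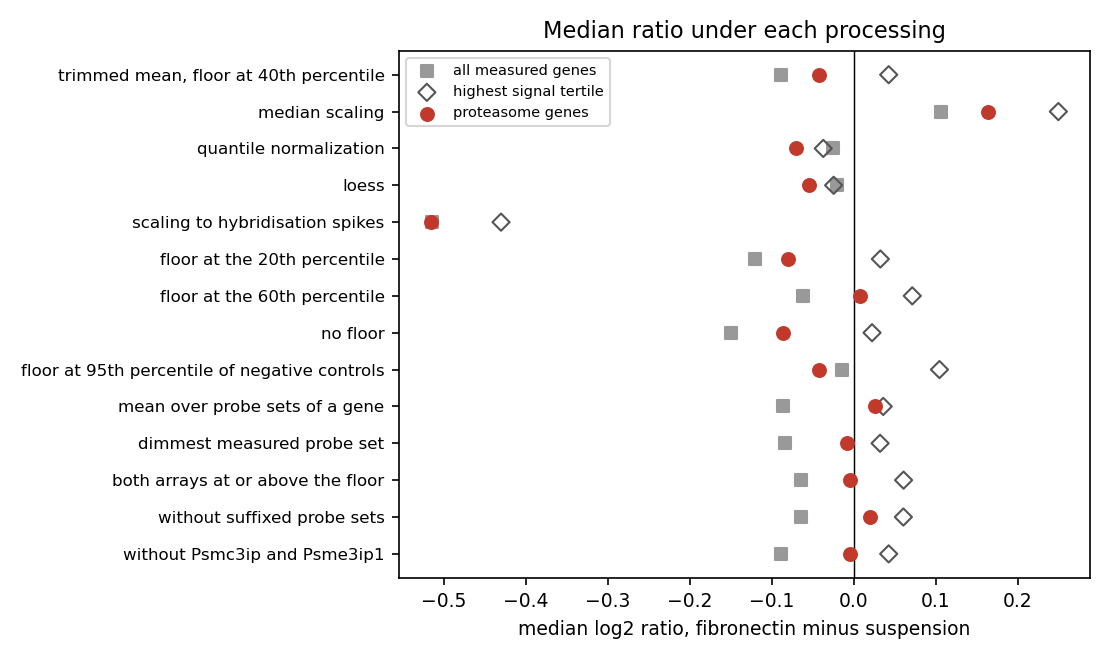
Median log2 ratio (horizontal) of proteasome genes (red circles), of all measured genes (grey squares) and of the genes in the highest signal tertile (open diamonds) under the processing used, in the top row, and under 13 alternatives. With scaling to the spikes all medians shift left. They lie there at -0.52 for proteasome genes, -0.51 for all measured genes and -0.43 for the highest signal tertile. The red circles lie within about 0.11 of the grey squares in every row.

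Other genes that serve the proteasome were read from lists. Over all measured genes, 15.9% were higher and 22.6% lower by 1.5-fold or more. The lower share was 12.5% among the partners and 16.7% among the ubiquitin and E1 genes, and 0 were higher in either list. Of 8 measured partners of the particle, 0 were higher and 1 was lower by 1.5-fold or more, with a median of -0.22, or -0.01 under median scaling and -0.69 when scaled to the spikes. This was Ecpas, a scaffold that binds the 26S particle, at 1846 in suspension against 1179 on fibronectin, 1.57-fold lower. Sem1, a small lid subunit with another naming scheme, had 22236 and 16990, a log2 ratio of -0.39, and Akirin2, which carries proteasomes into the nucleus, had 6861 and 5232, also -0.39. The median of 6 ubiquitin, ubiquitin-like and E1 genes was -0.21, or -0.04 under median scaling. Among them Uba3, the catalytic E1 subunit for Nedd8, had 1508 and 925 and was 1.63-fold lower, the only one past 1.5-fold in either direction. Isg15, an interferon-induced ubiquitin-like protein, had 4794 and 3544, a log2 ratio of -0.44, and Sumo3 had 14125 and 16680, a log2 ratio of 0.24. Ecpas and Uba3 had fibronectin signals under the control level. Under median scaling Ecpas and Uba3 came within 1.5-fold, with log2 ratios of -0.44 and -0.50. So they did after quantile normalization, with -0.51 and -0.50, and after loess, with -0.49 and -0.50. With the floor at the control level the log2 ratio of Ecpas was -0.17.

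Of 19 ubiquitin-conjugating E2 enzymes, 1 was higher and 5 lower by 1.5-fold or more, with a median of -0.20, or -0.01 under median scaling. These shares, 5.26% higher and 26.3% lower, stood against 15.9% and 22.6% of all measured genes. Ube2a, which serves DNA repair, read 393 in suspension against 1584 on fibronectin, at least 3.23-fold higher, but under the control level on both arrays. Ube2s, which extends chains for the anaphase-promoting complex, had 2861 and 1382 and was 2.07-fold lower, and Ube2d2a had 2006 and 1055, 1.90-fold lower. The fibronectin signals of both were under the control level. With the floor at the control level the log2 ratio of Ube2d2a was -0.29, and in its other probe set it was at least 1.32-fold lower. Of 22 E3 ligases 1 was higher and 3 lower by 1.5-fold or more, with a median of -0.004, or 0.20 under median scaling. Their shares were 4.55% higher and 13.6% lower, both under those of all measured genes. Itch had 3854 and 2046, 1.88-fold lower, the receptor kinase regulator Cbl 513 and 959, 1.87-fold higher, and Ubr1 824 and 434, at least 1.68-fold lower. Both signals of Cbl and of Ubr1 were under the control level, and with scaling to the spikes the log2 ratio of Cbl was 0.43. Of 31 deubiquitinases 5 were higher by 1.5-fold and 5 lower, with a median of -0.12, or 0.09 under median scaling. Each share was 16.1%, near the 15.9% higher and under the 22.6% lower among all measured genes. Usp21 had 1870 and 508, 3.68-fold lower, and Usp22, of the SAGA complex, had 583 and 1858, 3.19-fold higher. Usp1, which acts in DNA repair, had 1599 and 611, 2.62-fold lower. Each of these 3 genes had a fibronectin signal under the control level, and with the floor at that level the log2 ratios of Usp21 and Usp22 were -0.19 and 0.18.

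Regulators of proteasome genes and the unfoldase p97 were read as 11 genes, of which 2 were higher and 1 lower by 1.5-fold or more. Their median was 0.08, or -0.39 with scaling to the spikes. These shares, 18.2% higher and 9.09% lower, stood against 15.9% and 22.6% of all measured genes. Vcp (p97), which pulls ubiquitin-tagged proteins out of membranes and complexes, read 6597 in suspension against 10142 on fibronectin and was 1.54-fold higher. Its log2 ratio was 0.45 after quantile normalization, 0.47 after loess and 0.15 with scaling to the spikes, all within 1.5-fold. Of its other probe sets 2 reached the floor in 1 array only, at least 1.05-fold and at least 2.01-fold higher on fibronectin. The last was below the floor on both arrays, with 394 in suspension and 174 on fibronectin. Mafg, a small Maf partner of Nrf1 and Nrf2, was 1.66-fold higher in one probe set, with 939 and 1556, and 1.90-fold lower in the other, with 1417 and 747. Nfyb, a subunit of the CCAAT-binding factor NF-Y, had 1170 and 584, 2.00-fold lower, with both signals under the control level. A floor at the 60th percentile brought its log2 ratio to -0.15. Nfe2l1 itself had 6129 and 8745 and Nfe2l2 (Nrf2) 4227 and 5569, with log2 ratios of 0.51 and 0.40. These last 2 genes were chosen for their role after their values were seen. With scaling to the spikes their log2 ratios were 0.04 and -0.08, and under median scaling 0.72 and 0.60, both past 1.5-fold. Nfe2l1 had 0.80 as the mean over its probe sets and 1.10 in the dimmest.

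The class I presentation genes, which use the peptides that the proteasome makes, had 3 of 9 measured members higher and 2 lower by 1.5-fold or more. Their median was 0.22, or -0.25 with scaling to the spikes. These shares, 33.3% higher and 22.2% lower, stood against 15.9% and 22.6% of all measured genes. The heavy chain gene H2-K1 read 19149 in suspension against 29788 on fibronectin in the probe set used, 1.56-fold higher, with log2 ratios of 0.61 and 0.02 in its other probe sets and of 0.54 after quantile normalization. Those with an _f suffix can detect related class I genes. Pdia3, a disulfide isomerase of the peptide-loading complex, had 4429 and 17678, 3.99-fold higher, and its partner Calr had 826 and 476, at least 1.69-fold lower. Both signals of Calr were under the control level, and that on fibronectin was under the floor. Of the inducible subunits of the same pathway, Psmb10 had a log2 ratio of -0.36, as given above.

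Ribosomal proteins and the CCT chaperonin, which are large complexes too, were read on the same arrays. Of 31 measured cytosolic ribosomal protein genes 4 had ratios above 0 and 27 below, and 1 was higher and 6 lower by 1.5-fold or more. Their median was -0.30, or -0.09 under median scaling and -0.22 after loess. Of 9 CCT genes 5 were above 0 and 4 below, and 2 were higher and 1 lower by 1.5-fold or more. Their median was 0.05, or 0.26 under median scaling and -0.07 after loess. The proteasome had 20 genes above 0 and 22 below. At least 1.5-fold higher and lower were 3.23% and 19.4% of ribosomal genes and 22.2% and 11.1% of CCT genes. Among all measured genes the shares were 15.9% and 22.6%. The differences between complexes were not tested.

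**Figure D4:**
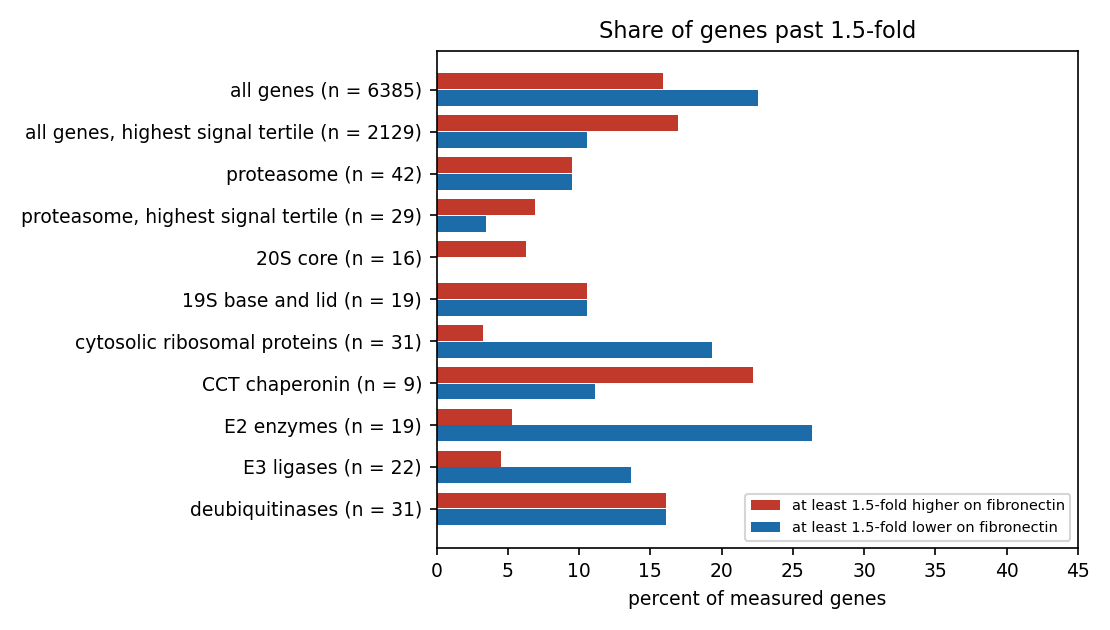
Percent of measured genes (horizontal) that were at least 1.5-fold higher (red) or at least 1.5-fold lower (blue) on fibronectin, for all genes, for genes of the highest signal tertile, for proteasome genes and for other lists, with the number of measured genes in brackets. The proteasome bars lie at 9.52% in both directions, against 15.9% and 22.6% for all genes.

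Promoters were read for 3 motifs because Nrf1, NF-Y and interferon signalling through STAT factors are known regulators of these genes. RefSeq windows of the 250 bases before the gene start (build GRCm38.p6) were found for 39 of the 46 members, and the window listed first was used for genes with several. Both strands were searched. The antioxidant response element core TGACNNNGC, the motif of Nrf1 and Nrf2, was found in 5 of 39 member windows, or 12.8%, against 10.1% of the windows of 27025 genes. The NF-Y box CCAAT was found in 14 of 39, or 35.9%, against 34.5%. The STAT motif TTCNNNGAA was found in 2 of 39, or 5.13%, against 7.18%. The member shares thus lay near those of all genes. The response element core and the STAT motif are shown with up to 10 bases on each side, to show which members hold them, with the match in capitals. Each is written 5′ to 3′ on the strand of its gene, so that a match on the other strand appears as its reverse complement.
Psmb5, response element core, chr14:54618024-54618052, minus strand: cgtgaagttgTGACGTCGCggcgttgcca
Psmb6, response element core, chr11:70525338-70525356, plus strand: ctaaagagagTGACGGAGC
Psmc6, response element core, chr14:45329587-45329615, plus strand: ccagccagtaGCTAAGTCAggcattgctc
Psmd9, response element core, chr5:123228149-123228177, plus strand: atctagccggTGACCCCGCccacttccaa
Psmd12, response element core, chr11:107479278-107479299, plus strand: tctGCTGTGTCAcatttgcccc
Psmb8, STAT motif, chr17:34198088-34198116, plus strand: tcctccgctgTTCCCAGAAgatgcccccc
Psmg1, STAT motif, chr16:95991185-95991210, minus strand: actcatgTTCTCTGAAtccgcttgca

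In 3 of the 5 genes with the response element core, the match begins within 50 bases of the listed gene start, at -47 in Psmb5, -31 in Psmd9 and -9 in Psmb6. In Psmc6 and Psmd12 it begins at -227 and -247. The printed Psmb6 stretch overlaps the annotated Psmb6 gene, and the other stretches overlap no annotated gene. The log2 ratios of Psmb5, Psmb6, Psmc6, Psmd9 and Psmd12 were 0.19, 0.22, 0.12, -0.39 and -1.07, so that genes with this motif lay on both sides of 0. Psmb8 and Psmg1, with the STAT motif, had -0.58, a bound under the control level, and -0.32. A match of letters in a window does not show a binding site, and binding was not measured.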

How the data were processed

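Total RNA of 2 samples, 1 per group by sample title, was measured on 1 array each. The authors deposited linear intensity values, 1 for each probe set, which come from MAS5, per the submitters' processing notes; its version and target intensity are not given in the sources. Arrays were put on 1 scale by their 2% trimmed means over 12422 probe sets other than controls (factors 0.999 and 1.00). A floor of 490, the mean of the arrays' 40th percentiles, was applied before log2. The probe set with the highest mean log2 signal stood for a gene. Negative controls were 34 antisense, bacterial and yeast control probe sets. Symbols came from the platform annotation; all 46 member gene IDs matched RefSeq with the same symbol. The members and all lists were chosen with earlier results of these data known. Named were all members, with both signals, and the 3 largest ratios of each partner list, plus Nfe2l1 and Nfe2l2; the ribosomal, CCT and marker lists are given by counts, medians or sums. Depth has no meaning for arrays, whose number limits the precision. No test was possible. The ratio calculation was tested on simulated data with little noise, with changes only in bright genes read by 1 probe set. The floor and the choice among probe sets were not tested in that way. Tried as alternatives were other scalings, floors, probe set choices and filters. Python 3.11.15, numpy 2.4.6, pandas 2.3.3 and statsmodels 0.14.6 were used.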

Additional observations from a re-analysis of the deposited data

How the results depend on the processing

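With 1 array per group, no array could be left out and no paired analysis was possible because each group has 1 sample. Of 13 alternatives, 1, the set without Psmc3ip and Psme3ip1, was added after the data were seen. Median scaling raised the median of the 42 measured proteasome genes to 0.16 and that of the 19S genes to 0.20. Scaling to the hybridisation spikes gave medians of -0.52 for all proteasome genes, -0.50 for the 20S core, -0.48 for the 19S genes and -0.34 for the Psme symbols, with 1 gene at least 1.5-fold higher and 18 lower. The number at least 1.5-fold higher was 2 after quantile normalization, after loess, with a 60th-percentile floor and with a floor at the negative controls. The number at least 1.5-fold lower was 7 with no floor, 2 with a floor at the negative controls and 2 without probe sets of the suffixes _f, _r, _g, _i and _s, which can detect related sequences or hold fewer probes. Psmg3 turned to 0.10 with the mean over its probe sets, to 1.25 with its dimmest probe set and to 1.25 without the suffixed ones. Mafg turned to -0.10 and -0.92 and Cct3, of the CCT genes, to -1.27 in the same way (mean and dimmest for Mafg, dimmest for Cct3). Of the 34 members within 1.5-fold, counting the Psmb8 bound, 19 stayed within it under every alternative that measured them, and 14 passed it with scaling to the spikes. Psme3ip1 kept a 1.5-fold difference under all 12 alternatives that include it. For the 10 member genes not above the negative controls in both arrays, the signal over background limits what can be read.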
